A study of Mus musculus with 6 samples.

Results

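The genes described are 10 milk protein and secretory genes of the mouse mammary gland, namely the caseins Csn1s1, Csn1s2a, Csn2 and Csn3, the whey proteins Lalba and Wap, the iron carriers Ltf and Trf, and the secreted proteins Wfdc18 and Lcn2. They were taken as a list by name, all 10 were found among the 31055 features of the deposited matrices, and they were followed in epithelial cells, in other cell classes and across 3 disease states. Epithelial cells were taken as the 9897 cells, of 21535 kept, that held at least 1 unique molecular identifier (UMI, a tag that marks 1 captured RNA molecule) of Epcam, an epithelial adhesion molecule.

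Milk proteins are made by the luminal secretory cells that line the alveoli of the gland. Prolactin, acting through the kinase Jak2 and the factor Stat5, switches their genes on in pregnancy and lactation, and luminal progenitor cells can transcribe some of them at low levels in the virgin gland. The calcium-binding caseins form the micelles of milk, alpha-lactalbumin (Lalba) is the partner that lets galactosyltransferase make lactose, whey acidic protein (Wap) is a major whey protein of rodents, and lactoferrin (Ltf), transferrin (Trf) and lipocalin 2 (Lcn2) bind iron or the siderophores that carry it.

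The 4 casein genes lie within 266 kb of chromosome 5 in the GRCm38 annotation of GENCODE vM21, from base 87666208 to base 87932665. Csn1s1 lies at chr5:87666208-87682578 on the plus strand, Csn2 at chr5:87692624-87699630 on the minus strand, Csn1s2a at chr5:87774567-87788797 on the plus strand and Csn3 at chr5:87925579-87932665 on the plus strand. The other members lie apart, Wap at chr11:6635482-6638637, Wfdc18 at chr11:83709015-83711348, Ltf at chr9:111019271-111042767, Trf at chr9:103204001-103230444, Lalba at chr15:98480400-98482721 and Lcn2 at chr2:32384633-32388252. The gene Gm20425 overlaps Trf on the same strand, so reads of this pair may have been split or dropped by the authors' counting and the Trf counts are uncertain to that extent. The antisense gene 1700066N21Rik overlaps Csn3 on the opposite strand, which bears on the Csn3 counts only if reads were counted without regard to strand.

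Promoter windows of RefSeq (GRCm38.p6, 250 bases before to 50 after the transcript start) were held for 8 members, Csn1s1, Csn1s2a, Csn2, Lalba, Wap, Ltf, Wfdc18 and Lcn2. They are shown because Stat5 binds the palindrome TTCNNNGAA, which reads the same on both strands, and the 3 members with a match are the 3 caseins with the most alike profiles below. The match starts 100 bases before the RefSeq start of Csn1s1, 93 before that of Csn2 and at base 21 of the Csn1s2a transcript. The gene models differ here, since by the GENCODE positions above the Csn1s2a match lies ahead of the gene and the Csn2 match lies inside it. Of all 32851 windows of this length, 8.30% held a match, so a match is a description, and binding was not tested. The sequences follow 5′ to 3′ on the strand of the gene, with the match in capitals, for chr5:87665958-87666207 (Csn1s1, plus strand), chr5:87699500-87699528 (Csn2, minus strand), chr5:87774460-87774488 (Csn1s2a, plus strand) and, with no match, chr11:6638650-6638899 (Wap, minus strand).
Csn1s1: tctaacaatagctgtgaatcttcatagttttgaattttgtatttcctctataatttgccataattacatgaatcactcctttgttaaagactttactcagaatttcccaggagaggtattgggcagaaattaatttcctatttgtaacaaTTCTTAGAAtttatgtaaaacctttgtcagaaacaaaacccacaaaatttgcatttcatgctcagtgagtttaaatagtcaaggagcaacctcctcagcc
Csn2: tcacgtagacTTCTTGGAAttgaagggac
Csn1s2a: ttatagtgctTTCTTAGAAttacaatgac
Wap: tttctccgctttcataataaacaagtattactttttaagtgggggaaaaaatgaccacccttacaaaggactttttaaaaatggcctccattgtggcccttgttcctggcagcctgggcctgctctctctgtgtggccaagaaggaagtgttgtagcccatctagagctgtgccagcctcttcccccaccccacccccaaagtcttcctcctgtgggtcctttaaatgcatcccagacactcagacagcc

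The libraries were droplet single-cell RNA-seq of mammary tissue from female C3TAG mice, an FVB/NJ line in which every group carries SV40 large T antigen under the C3(1) promoter and in which the transgene leads to mammary tumours. There were 2 libraries per state, from whole glands at 5 weeks (Prepuberty), whole glands with ductal carcinoma in situ at 14 weeks (DCIS) and palpable tumours at over 18 weeks (Tumor). The labels do not say whether the libraries of a state came from different animals and the study calls them technical replicates in one place, so every SE and p-value measures only the spread between these libraries. Per the labels, glands and tumours were digested alike and prepared with 1 kit version. The methods of the study differ here. They give a separate dissociation of tumours, which cannot be told apart from the state, and a later kit for Tumor 2, which cannot be told apart from that library.

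Each library held between 2546 and 4308 kept cells and between 30041293 and 61479653 deposited UMIs, and any pair of libraries shared 9 to 39 cell barcodes. The Epcam cells numbered 1042 and 247 in Prepuberty 1 and 2, 1694 and 1648 in DCIS 1 and 2, and 3524 and 1742 in Tumor 1 and 2, with median depths of 7202 to 15926 UMIs. Their epithelial identity was checked on keratins, and Krt8 was detected in 69.6% to 90.4% and Krt18 in 68.0% to 94.2% of them. In the tumour libraries 83.4% and 66.7% of the cells with the endothelial gene Pecam1 also held Epcam, against 2.33% to 20.8% in the 4 gland libraries. Other classes were cells without Epcam or T antigen UMIs that held Pdgfra (fibroblast gate), Pecam1 (endothelial gate) or Ptprc (immune gate) and neither of the other 2 genes.

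Levels below are in CPM, the UMIs of a gene in the cells of a class and library per 1000000 UMIs of those cells. In all comparisons, UMIs were summed per library and class and tested across libraries with edgeR's quasi-likelihood F test, and a gene was called if its p-value, adjusted by Benjamini-Hochberg over all genes tested, was under 0.05. SE is the standard error of a log2 fold change. Where a level rests on 1 to 3 UMIs the count is given, and intervals and limits on shares or ratios cover counting error only.

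The calcium-sensitive caseins Csn1s1, Csn1s2a and Csn2 were highest in both DCIS libraries, the Prepuberty and Tumor libraries overlapped for Csn1s1 and Csn2, and no state difference of the 3 passed the test. The Csn1s1 level was 78.7 CPM in Prepuberty 1 and 11.9 CPM in Prepuberty 2, it was 544.5 and 630.6 CPM in the DCIS libraries, and it was 0.492 CPM in Tumor 1 and 14.9 CPM in Tumor 2. The lowest DCIS library was above every other library, whereas Tumor 2 lay above Prepuberty 2. The fitted log2 difference of Csn1s1 was 3.78 for DCIS over Prepuberty (SE 1.41, edgeR adjusted p = 0.502) and -6.80 for Tumor over DCIS (SE 1.62, edgeR adjusted p = 0.0784).

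Csn1s2a, a rodent alpha-S2 casein, stood at 43.0 and 3.13 CPM in Prepuberty, 497 and 431 CPM in DCIS, and 0.0189 (1 UMI) and 1.85 CPM in Tumor. Csn2, the beta-casein gene, stood at 18.5 and 0.939 CPM (3 UMIs in the latter) in Prepuberty, 268.5 and 271.7 CPM in DCIS, and 0.0189 (1 UMI) and 4.37 CPM in Tumor. For both genes the DCIS libraries lay above all others and close to each other, whereas the libraries of Prepuberty and of Tumor differed widely among themselves. The log2 difference of Tumor from DCIS was -9.53 for Csn1s2a (SE 1.90, edgeR adjusted p = 0.0611) and -7.51 for Csn2 (SE 1.93, edgeR adjusted p = 0.0870).

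Csn3, the kappa-casein that caps the micelle, did not follow the other caseins across the libraries, although it was high in the casein-rich cells described below. It stood at 298 and 159 CPM in Prepuberty, 252 and 336 CPM in DCIS, and 367 and 29.9 CPM in Tumor, so Tumor 1 had the highest and Tumor 2 the lowest level. The states overlapped, and the log2 differences were 0.50 for DCIS over Prepuberty (SE 1.02), -0.80 for Tumor over DCIS (SE 1.02) and -0.31 for Tumor over Prepuberty (SE 1.02). In Tumor 1 Csn3 was detected in 61.3% of the Epcam cells against 0.511% for Csn1s1, whereas in Tumor 2 the shares were 3.50% and 2.93%.

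**Figure D1:**
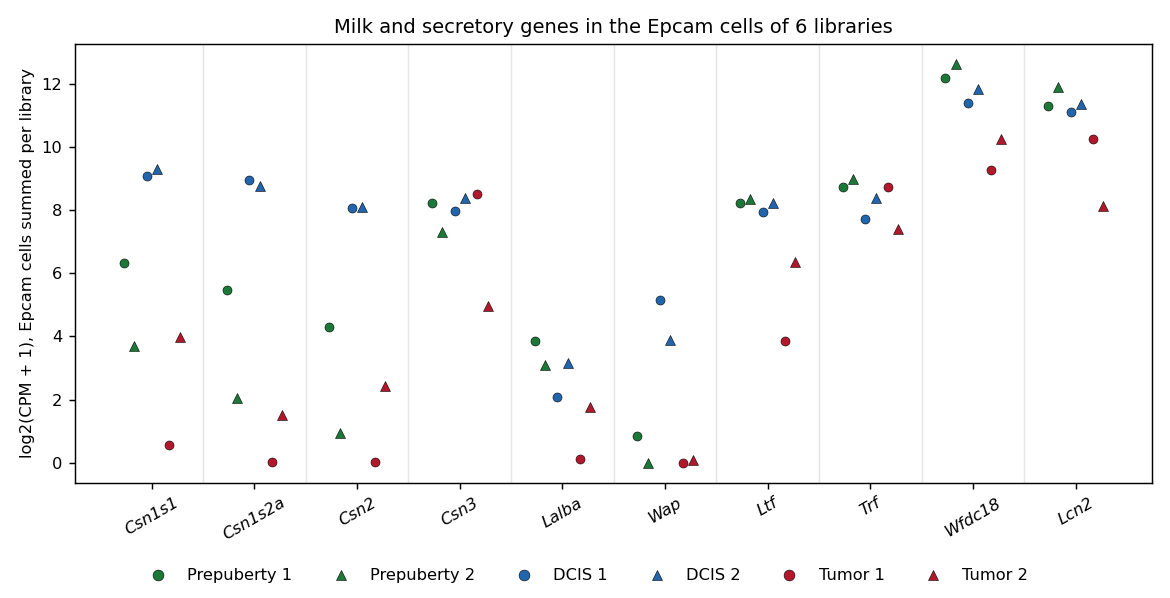
Level of each of the 10 genes in Epcam cells, as log2(CPM + 1) per library (1 point per library, 2 per state). Csn1s1, Csn1s2a, Csn2 and Wap are highest in both DCIS libraries, Ltf and Wfdc18 are lowest in both Tumor libraries, and the 2 Tumor points of Csn3 span the whole range of that gene.

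Wap was the only member called between Tumor and DCIS. It was seen with 13 UMIs (0.811 CPM) in Prepuberty 1 and with 0 in Prepuberty 2, at 34.5 and 13.7 CPM in DCIS 1 and 2, and with 0 UMIs in Tumor 1 and 2 UMIs (0.0606 CPM) in Tumor 2. Both DCIS libraries exceeded all others. Tumor was lower than DCIS with an edgeR adjusted p of 0.0374, on 937 UMIs in DCIS against 2 in Tumor, a ratio of summed levels of 1015 (95% counting interval 280 to 8397). The ratio was 588 without DCIS 1 and 390 without Tumor 1, and without Tumor 2, which held both Tumor UMIs, DCIS was at least 417-fold higher. The call was lost without Prepuberty 1 (adjusted p = 0.0602), Prepuberty 2 (0.0511), DCIS 1 (0.0876) or DCIS 2 (0.132), or in a fit of DCIS and Tumor alone (0.0527), and the adjusted p ran from 7.19e-37 to 0.132 over 18 alternatives.

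Lalba was a low gene in every state. Its Epcam level was 13.6 and 7.51 CPM in Prepuberty, 3.26 and 8.02 CPM in DCIS, and 0.0947 (5 UMIs) and 2.37 CPM in Tumor. The Tumor libraries were the lowest pair, the Prepuberty and DCIS libraries overlapped, and the log2 difference of Tumor from Prepuberty was -3.54 (SE 1.19, edgeR adjusted p = 0.121). At most 3.93% of the Epcam cells of a library held a Lalba UMI.

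The iron carriers differed in how they varied. Ltf, an antimicrobial iron-binding protein of milk, stood at 298 and 326 CPM in Prepuberty, 247.5 and 297 CPM in DCIS, and 13.3 and 81.3 CPM in Tumor, so both tumour libraries lay below the 4 gland libraries. The log2 difference of Tumor was -3.02 from DCIS (SE 0.69, edgeR adjusted p = 0.0729) and -3.06 from Prepuberty (SE 0.69, edgeR adjusted p = 0.0587), neither past the threshold. Trf, the serum iron carrier that is also secreted into milk, stood at 423.5 and 502 CPM in Prepuberty, 212 and 335 CPM in DCIS, and 425 and 168.5 CPM in Tumor. Its states overlapped, and no log2 difference was larger than -0.78 (SE 0.54, Tumor from Prepuberty) in size.

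Wfdc18, a secreted protein of the whey acidic protein family, fell from Prepuberty to Tumor. It stood at 4706 and 6355 CPM in Prepuberty, 2696 and 3658 CPM in DCIS, and 620 and 1229 CPM in Tumor, with no overlap between the states. The log2 difference was -2.84 for Tumor over Prepuberty (SE 0.38, edgeR adjusted p = 0.0301), -2.21 for Tumor over DCIS (SE 0.37, edgeR adjusted p = 0.0509) and -0.63 for DCIS over Prepuberty (SE 0.35, edgeR adjusted p = 0.585). The first of these was lost without Prepuberty 1 (adjusted p = 0.0884) or Prepuberty 2 (0.0902), in a fit of Prepuberty and Tumor alone (0.0510), and with thinned cells, where the log2 difference was -1.82 (0.0645). The share of Epcam cells with a Wfdc18 UMI was 69.7% and 36.8% in Prepuberty, 67.2% and 55.7% in DCIS, and 58.9% and 54.6% in Tumor. In the fibroblast gate, which should lack the gene, the share was 7.11% to 40.3% at median depths of 7551 to 11932 UMIs. After each cell was thinned to 2000 UMIs, the shares were 32.2% to 53.5% in Epcam cells and 1.78% to 8.94% in the fibroblast gate.

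Lcn2, an acute-phase protein that withholds iron from bacteria, stood at 2529 and 3832 CPM in Prepuberty, 2229 and 2664 CPM in DCIS, and 1210 and 277 CPM in Tumor. Both tumour libraries were the lowest, with Tumor 2 far below Tumor 1. The log2 difference of Tumor was -1.99 from DCIS (SE 0.72, edgeR adjusted p = 0.151) and -2.19 from Prepuberty (SE 0.72, edgeR adjusted p = 0.117).

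Across the list, 0 of 10 members were called between DCIS and Prepuberty by edgeR, where 0% of 14206 genes were called. At an unadjusted p under 0.05, 4 members and 1377 genes differed, and DESeq2 called 0 members and 197 genes. Between Tumor and DCIS 1 member was called (Wap, lower) against 0.985% of genes in either direction and 0.81% lower, and between Tumor and Prepuberty 1 member (Wfdc18, lower) against 3.1% in either direction and 1.89% lower. At an unadjusted p under 0.05, 8 members and 3641 genes differed in the former and 6 members and 3877 genes in the latter, and DESeq2 called 7 members and 1890 genes, and 4 members and 2303 genes. The median log2 difference of the members was 0.23 for DCIS over Prepuberty, -2.89 for Tumor over DCIS and -2.93 for Tumor over Prepuberty, beside 0.01, 0.08 and 0.08 over all genes tested. The last 2 comparisons share the Tumor libraries.

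The UMIs of Csn1s1, Csn1s2a, Csn2, Lalba and Wap sat in few cells, whereas those of Csn3, Ltf and Trf varied widely between libraries in this respect. Where no more cells hold a UMI than make up 1% of the Epcam cells, the share of the top 1% is 100% by construction, which was so for Csn1s1 in 1 library, for Csn1s2a, Csn2 and Lalba in 3 each and for Wap in 2. In the other libraries with a UMI, the top 1% of Epcam cells held 45.5% to 87.8% of the Csn1s1 UMIs (5 libraries), 62.1% to 90.0% of the Csn1s2a UMIs (3), 57.1% to 87.5% of the Csn2 UMIs (3), 79.4% to 83.3% of the Lalba UMIs (3) and 96.8% and 98.8% of the Wap UMIs (2). Over all 6 libraries the shares were 15.2% to 86.3% for Csn3, 20.6% to 66.0% for Ltf and 8.92% to 50.7% for Trf. The shares were 12.6% to 28.7% for Wfdc18 and 7.82% to 21.8% for Lcn2 in all 6 libraries, and the part of gene abundance in these differences was not tested. The highest single cell held 1146 UMIs of Csn1s1, in DCIS 2.

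**Figure D2:**
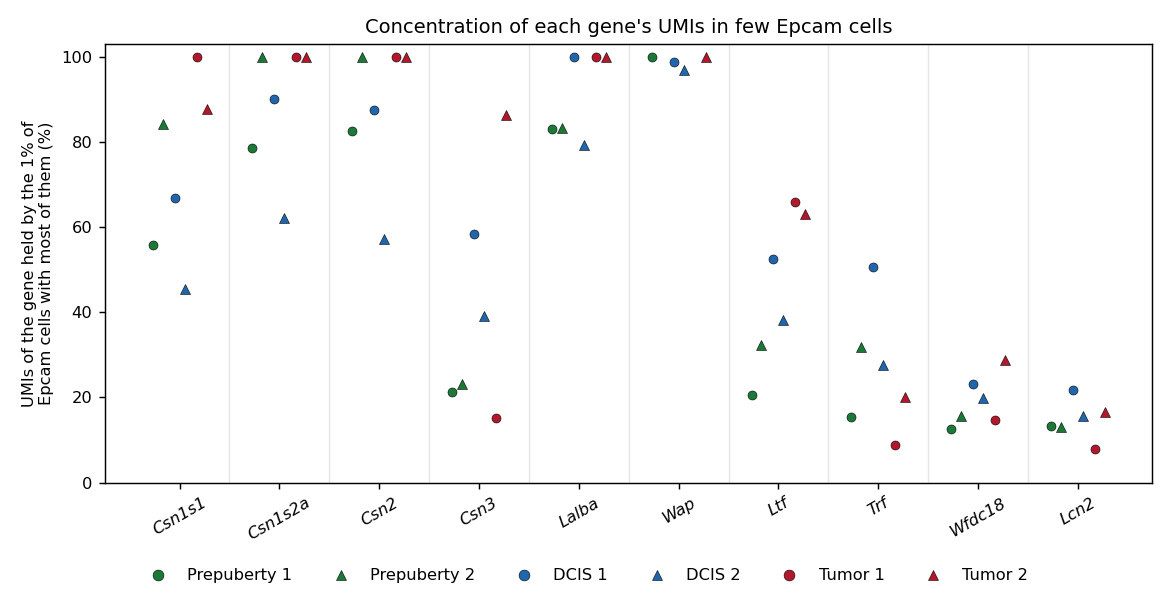
Share of a gene's UMIs, in percent, held by the 1% of Epcam cells with most of them, per gene and library. Lalba and Wap lie at 79.4% or more in every library with a UMI, with points at 100% where few cells hold one, whereas Wfdc18 and Lcn2 lie below 30%.

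Cells with at least 10 UMIs of Csn1s1, Csn1s2a and Csn2 together were counted as casein-rich. There were 34 and 2 of them in Prepuberty 1 and 2, 73 and 136 in DCIS 1 and 2, and 0 and 14 in Tumor 1 and 2. They made up 3.26% and 0.810% of the Epcam cells in Prepuberty, 4.31% and 8.25% in DCIS, and 0% and 0.804% in Tumor. In DCIS they held 98.7% of the UMIs of the 3 caseins in each library, and they held 86.0% in Prepuberty 1, 74.5% in Prepuberty 2 (2 cells) and 85.2% in Tumor 2.

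Casein-rich cells were deeper than all Epcam cells in the gland libraries, with median UMI counts of 18212 to 30592.5 against 7202 to 11289.5, but not in Tumor 2 (14560.5 against 15926), and the part of depth in their other values was not tested. Csn3, Wfdc18 and Lcn2 were also read in them. In DCIS 1 and 2 Csn3 was detected in 91.8% and 97.1% of them against 9.92% and 17.1% of all Epcam cells, and Csn3 stood at 2817 and 1895 CPM against 252 and 336 CPM. Wfdc18 stood at 10810 and 10357 CPM and Lcn2 at 10287 and 7978 CPM in the casein-rich cells of these 2 libraries. In Tumor 2 the 14 casein-rich cells held Csn3 at 2758 CPM, where all Epcam cells of that library stood at 29.9 CPM. T antigen UMIs were seen in 35.6% of the casein-rich cells of DCIS 1 and 28.7% of those of DCIS 2, against 21.8% and 10.5% of all Epcam cells. In Tumor 2 the order was the other way, with 28.6% of the 14 casein-rich cells (4 cells, exact 95% interval 8.39% to 58.1%) against 53.8% of all Epcam cells.

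The members were then read in sub-gates of Epcam cells that used no member gene, with at least 2 of 5 markers of one kind and at most 1 of each other kind. The progenitor sub-gate used Elf5, Kit, Aldh1a3, Cd14 and Rspo1, the hormone-sensing sub-gate Esr1, Pgr, Prlr, Areg and Cited1, and the basal sub-gate Krt5, Acta2, Oxtr, Mylk and Tagln. Cells of the progenitor sub-gate numbered 131 and 18 in Prepuberty, 296 and 201 in DCIS, and 695 and 491 in Tumor. Between 40.3% and 69.9% of the Epcam cells of a library fell in no sub-gate. Of the casein-rich cells, 64.7% and 0% did so in Prepuberty 1 and 2, 45.2% and 60.3% in DCIS 1 and 2, and 28.6% in Tumor 2. Cells in no sub-gate held 2713 of 10348 Csn1s1 UMIs in DCIS 1 and 7774 of 12975 in DCIS 2. They held 39 of 655 and 242 of 282 Wap UMIs in these libraries.

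In progenitor cells Csn1s1 stood at 275 and 111 CPM in Prepuberty, 1353 and 1131 CPM in DCIS, and 0.645 and 36.4 CPM in Tumor. The order of the states was that of all Epcam cells, and both Tumor libraries lay below the 4 gland libraries. Wfdc18 stood at 11379 and 10955 CPM in Prepuberty, 4981 and 6253 CPM in DCIS, and 767 and 2223 CPM in Tumor. Within this sub-gate, a comparison added after its levels had been seen, 4 members were called lower in Tumor than in DCIS (Csn1s1, Csn1s2a, Wap and Wfdc18), where 2.57% of genes were called in either direction and 1.67% lower. There 3 were called lower in Tumor than in Prepuberty (Csn1s2a, Lcn2 and Wfdc18), where 2.3% of genes were called in either direction and 1.53% lower.

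Against basal cells of the same libraries, 9 of 10 members were called, all lower in basal cells, where 15.6% of genes were called in either direction and 8.27% lower. The log2 difference was -8.20 for Csn2 (SE 0.40), -7.19 for Csn1s1 (SE 0.39), -6.81 for Ltf (SE 0.45) and -4.64 for Wfdc18 (SE 0.26), with edgeR adjusted p-values of 4.28e-05, 4.28e-05, 9.01e-05 and 4.28e-05. Wap rested on 653 UMIs in progenitor and 2 in basal cells, a ratio of 86.7 (95% counting interval 23.9 to 717). DCIS 1 held 613 of these progenitor UMIs, 232 of them in 1 cell, and without DCIS 1 the ratio was 10.3 (1.75 to 419) on 40 UMIs against 1. Lalba was not called (log2 -3.85, SE 1.25, edgeR adjusted p = 0.0657). Lcn2 was also plentiful in basal cells of the glands, at 1777 and 2689 CPM in Prepuberty and 2024 and 2447 CPM in DCIS, and stood at 81.7 and 66.6 CPM in basal cells of the tumours.

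The Lcn2 and Trf calls against basal cells were the least stable of the 9. Lcn2 (log2 -1.82, edgeR adjusted p = 0.0246) was lost without Prepuberty 1 (adjusted p = 0.0732), Prepuberty 2 (0.0639) or Tumor 2 (0.0513). Trf (log2 -2.71, edgeR adjusted p = 0.0277) was lost without Prepuberty 1 (adjusted p = 0.0604), Prepuberty 2 (0.0854), DCIS 2 (0.0819) or Tumor 1 (0.0515). Under DESeq2 Wap was not called (log2 -2.23, adjusted p = 0.559).

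Against hormone-sensing cells, 8 of 10 members were called, all lower in hormone-sensing cells, where 3.91% of genes were called in either direction and 1.34% lower. The log2 difference was -4.10 for Csn1s1 (SE 0.84), -3.31 for Lalba (SE 0.53), -2.84 for Ltf (SE 0.47), -2.36 for Wfdc18 (SE 0.42) and -2.11 for Lcn2 (SE 0.34). Csn3 (log2 -1.93, edgeR adjusted p = 0.116) and Trf (log2 -2.26, edgeR adjusted p = 0.0695) were not called. Wap, one of the 8, was not called by DESeq2 (log2 -2.02, adjusted p = 0.538). The number called was 0 without DCIS 1, 2 without Prepuberty 2, 4 without DCIS 2, 5 without Prepuberty 1 or Tumor 2 and 10 without Tumor 1. DCIS 2 stood apart, with 349 CPM of Csn1s1 in its hormone-sensing cells (988 UMIs) against 0 to 10.0 CPM in those of the other 5 libraries. In DCIS 2 these UMIs were in 20 of 243 cells, and 3 cells held 58.6% of them.

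**Figure D3:**
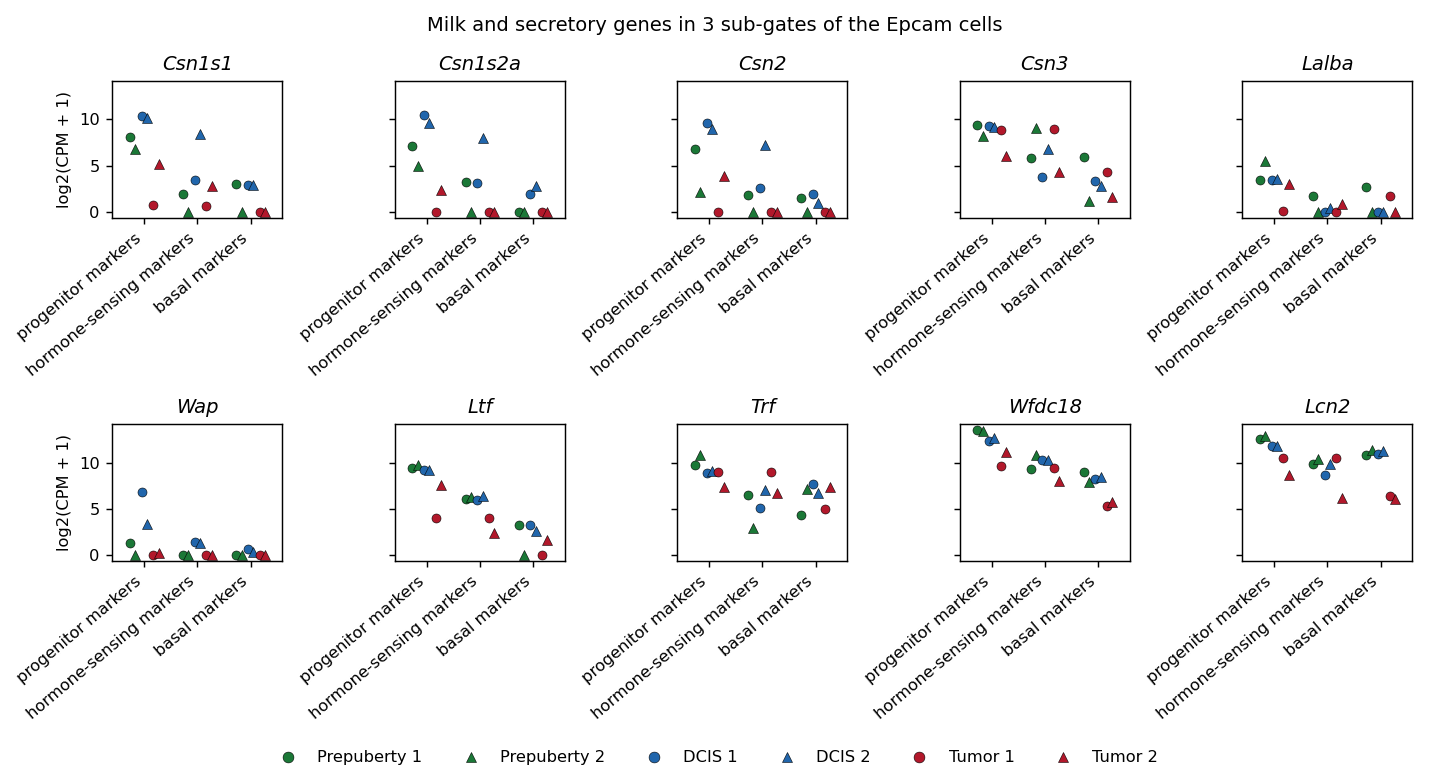
Level of each gene, as log2(CPM + 1), in the progenitor, hormone-sensing and basal sub-gates of Epcam cells, 1 point per library. In the gland libraries the progenitor point of a library is above its hormone-sensing and basal points for Csn1s1, Csn1s2a, Csn2, Ltf and Wfdc18, and basal cells of the glands keep Lcn2 above 1700 CPM.

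Free RNA from secretory cells can put UMIs into any droplet, so the members were also read in cells that should not make milk. In the fibroblast gate Csn1s1 stood at 0.568 and 0 CPM in Prepuberty, 6.44 and 1.85 CPM in DCIS, and 0 and 1.87 CPM (3 UMIs in the latter) in Tumor. DCIS 1 had the highest of these levels, and 2 libraries had none. Wfdc18 stood at 49.9 and 7.0 CPM, 91.7 and 21.4 CPM, and 16.4 and 7.49 CPM, and Lcn2 at 48.2 and 112 CPM, 45.1 and 55.5 CPM, and 55.5 and 63.0 CPM, in the same order of libraries.

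All 10 members were called higher in Epcam cells than in the fibroblast gate of the same libraries, where 38.8% of genes were called in either direction and 21.7% higher. The log2 differences ran from 4.64 for Lcn2 (SE 0.46, edgeR adjusted p = 8.67e-05) to 7.61 for Csn1s2a (SE 0.44, edgeR adjusted p = 1.92e-05). All 10 were also called when any 1 library was left out, and all 8 that could be tested were called without the library as a block. DESeq2 did not call Wap (log2 3.13, adjusted p = 0.292), which had 4 UMIs in all fibroblast gates together.

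Lalba was the exception in the endothelial gate. It stood there at 5.71 and 3.90 CPM in Prepuberty, 6.0 and 10.6 CPM in DCIS, and 6.03 (3 UMIs) and 9.10 CPM (2 UMIs) in Tumor, on 25, 24, 13, 25, 3 and 2 UMIs. Every library had it, in 2.89% to 6.67% of the endothelial cells at median depths of 5357.5 to 10221 UMIs, whereas the fibroblast gates, at median depths of 7551 to 11932 UMIs and deeper than the endothelial gate in every library but DCIS 2 (7551 against 7661), held 3 UMIs in Prepuberty 1 and 0 in the other 5 libraries, and the immune gate held 0 in all 6. After thinning to 2000 UMIs the endothelial share was 0.687% to 3.12% in 5 libraries and 0% in Tumor 2.

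Against the fibroblast gate, a test added after these levels had been seen, Lalba was the only member of the 8 tested that was called in endothelial cells, where 40.8% of genes were called in either direction and 20% higher. Its log2 difference was 5.87 (SE 0.65, edgeR adjusted p = 6.96e-05), and it was called under all 10 alternatives, with an adjusted p of at most 0.00472. Csn1s1 (log2 -0.25, SE 0.55) and Wfdc18 (log2 -0.45, SE 0.29), which are far more abundant in Epcam cells, were not called in that comparison. Between Epcam cells and the endothelial gate 9 of 10 members were called higher in Epcam cells (43% of genes in either direction, 24.2% higher), and Lalba was not (log2 -0.14, SE 0.66, edgeR adjusted p = 0.888). Its sign turned without DCIS 1 (0.10), Tumor 1 (0.23) or Tumor 2 (0.05). Of the 9, DESeq2 did not call Wap (log2 2.71, adjusted p = 0.504), which had 1 UMI in all endothelial gates together.

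Lcn2 was intermediate in endothelial cells. It stood there at 489 and 254 CPM in Prepuberty, 376 and 243 CPM in DCIS, and 32.2 and 0 CPM in Tumor, so the tumour libraries lay below all gland libraries. The log2 difference of Tumor was -4.25 from DCIS (SE 0.84, edgeR adjusted p = 0.0249; 8.92% of genes called) and -4.25 from Prepuberty (SE 0.84, edgeR adjusted p = 0.0258; 7.93% called), on 67 and 30 endothelial cells in the tumours. The first was lost without DCIS 1 (adjusted p = 0.108) or DCIS 2 (0.0699) and the second without Prepuberty 1 (0.0857) or Prepuberty 2 (0.0573). Over the fibroblast gate the Lcn2 difference was 1.20 (SE 0.68, edgeR adjusted p = 0.184), and without Tumor 2 it was called (log2 1.67, adjusted p = 0.0242).

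Trf was the exception in the immune gate. It stood there at 29.5 and 76.6 CPM in Prepuberty (5 and 25 UMIs), 340 and 363 CPM in DCIS, and 320 and 160 CPM in Tumor, beside 423.5 and 502, 212 and 335, and 425 and 168.5 CPM in the Epcam cells of the same libraries. The immune level was thus far below the Epcam level in both Prepuberty libraries, above it in both DCIS libraries and below it in both Tumor libraries. Over the fibroblast gate, where Trf stood at 4.11 to 20.6 CPM, the log2 difference was 4.20 (SE 0.57, edgeR adjusted p = 0.000104), and Trf was the only member of the 4 tested that was called (35.8% of genes in either direction, 16.8% higher). That call, also added after the levels were seen, held under all 10 alternatives. Trf UMIs were seen in 12.0% to 49.2% of immune cells, at median depths of 2459 to 6739 UMIs, and in 2.15% to 9.91% of the deeper fibroblast gates.

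Against Epcam cells, 9 of 10 members were higher than in the immune gate (43.3% of genes in either direction, 25.3% higher) and Trf was not called (log2 0.47, SE 0.53, edgeR adjusted p = 0.506). Lalba and Wap had 0 immune UMIs, so their Epcam levels were at least 5.13-fold and at least 8.85-fold higher, taking 3 counts over the whole gate as the limit. Without DCIS 1, which held 655 of the 952 Wap UMIs, the Wap bound was 2.54-fold, and without Prepuberty 1 the Lalba bound was 3.34-fold. DESeq2 did not call Csn2 (log2 3.33, adjusted p = 0.0726) or Wap, whose sign it turned (log2 -0.71, adjusted p = 0.875). Between states the immune level of Trf was 3.02 higher on the log2 scale in DCIS than in Prepuberty (SE 0.56) and was not called (edgeR adjusted p = 0.283, 0% of 6240 genes called), whereas DESeq2 called it. Of the 3 members tested in immune cells, edgeR and DESeq2 called 0 for Tumor over DCIS (0.144% of genes called by edgeR, and 0 members at an unadjusted p under 0.05) and 0 for Tumor over Prepuberty (0.304% of genes, and 2 members at an unadjusted p under 0.05). In endothelial cells Trf was called higher in Tumor than in DCIS (log2 2.66, SE 0.64, edgeR adjusted p = 0.0411), with 88.4 CPM in Tumor 1 and 22.7 CPM in Tumor 2 against 8.31 and 7.66 CPM, and without Tumor 1 the difference was 0.86 (adjusted p = 0.513). Leaving out Prepuberty 1 (adjusted p = 0.0518), Prepuberty 2 (0.0552), DCIS 1 (0.162) or DCIS 2 (0.173) also ended that call.

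**Figure D4:**
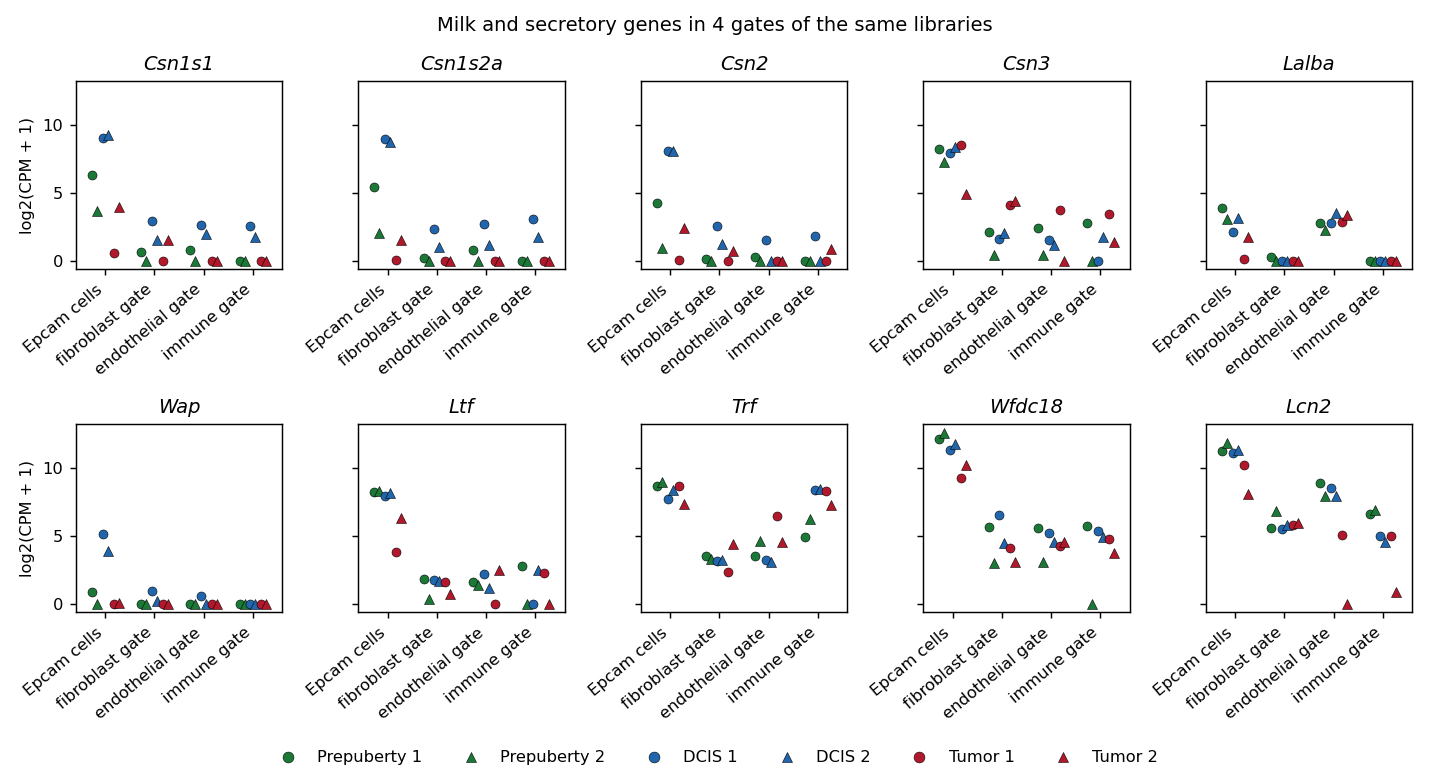
Level of each gene, as log2(CPM + 1), in Epcam cells and in the fibroblast, endothelial and immune gates, 1 point per library. Lalba reaches 3.90 to 10.6 CPM in the endothelial gate and 0 in the immune gate, and Trf reaches 29.5 to 363 CPM in the immune gate.

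The transgene product was then used to split Epcam cells into those with and without a T antigen UMI, 369 and 1325 cells in DCIS 1, 173 and 1475 in DCIS 2, 2363 and 1161 in Tumor 1, and 937 and 805 in Tumor 2. Prepuberty 1 had 112 and 930 such cells, and Prepuberty 2, with 3 cells that held T antigen, was left out of the fits. Cells with T antigen were deeper, with median UMI counts of 14283 to 27787.5 against 7484 to 11197 in the same 5 libraries, and the calls lost after thinning to 2000 UMIs per cell are named below. The split was made before thinning, and a cell without a T antigen UMI may still have held T antigen RNA. Over all 5 libraries 0 of 10 members were called by edgeR (7.39% of genes were), 0 differed at an unadjusted p under 0.05, DESeq2 called 0 members, and the log2 differences ran from -1.17 (Lalba, SE 0.88) to 0.46 (Csn2, SE 0.63). Without Tumor 2, 1 member (Csn2) was called.

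The pooled values covered opposite directions in DCIS and Tumor, and not only for Csn2 and Ltf. Csn1s1, Csn3, Lalba, Ltf, Trf, Wfdc18 and Lcn2 were all higher with T antigen in both DCIS libraries and lower in both Tumor libraries. Wap was lower in cells with T antigen in both DCIS libraries (25.3 against 39.3 CPM and 11.8 against 14.2 CPM) and had 2 UMIs in the tumours. The share of cells with a Wap UMI went the other way (2.98% against 1.06% and 6.36% against 1.02%). In DCIS 1, a single cell without T antigen held 232 of the 490 Wap UMIs of such cells. In DCIS, Csn2 stood at 458 CPM with T antigen and 170 CPM without in DCIS 1, and at 589 and 195 CPM in DCIS 2. In Tumor, it stood at 0.0239 CPM (1 UMI) and 0 in Tumor 1 and at 1.09 and 10.9 CPM in Tumor 2. Cells with T antigen were thus higher in both DCIS libraries and lower in Tumor 2, and Tumor 1 had too few UMIs for a direction. In Tumor 2 the level rested on 11 cells, 4 with T antigen (24 UMIs) and 7 without (120 UMIs, 64 of them in 1 cell), and in DCIS 1 the top 4 cells held 76.2% of the UMIs of cells with T antigen.

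Ltf, which was well counted in all of these libraries, showed the same turn in each. It stood at 316 CPM with and 212 CPM without T antigen in DCIS 1, 430 and 265 CPM in DCIS 2, 9.69 and 27.4 CPM in Tumor 1, and 44.8 and 155 CPM in Tumor 2. In Prepuberty 1 the values were 443 and 259 CPM. Cells with T antigen were higher in all 3 gland libraries and lower in both tumour libraries.

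In DCIS alone 6 members were called higher in cells with T antigen (8.37% of genes in either direction, 3.49% higher), Csn2 by 1.45 on the log2 scale (SE 0.12), Csn1s1 by 1.05 (SE 0.17), Wfdc18 by 0.75 (SE 0.12), Csn1s2a by 0.74 (SE 0.10), Ltf by 0.58 (SE 0.08) and Lcn2 by 0.32 (SE 0.06). Without DCIS 1 only Csn2 of these was called, and without DCIS 2, or without the library as a block, none of the 6 was. With thinned cells the calls of Ltf (log2 0.31, adjusted p = 0.302) and Lcn2 (0.16, adjusted p = 0.360) were lost and the other 4 held. DESeq2 did not call Csn1s1 (adjusted p = 0.105), and with at least 2 Epcam UMIs per cell Wfdc18 (0.0573) and Lcn2 (0.264) were not called. In Tumor 5 members were called lower in cells with T antigen (2.22% of genes in either direction, 2.18% lower). These were Csn2 (log2 -3.17, SE 0.28), Csn1s1 (-2.30, SE 0.27), Ltf (-1.63, SE 0.09), Csn1s2a (-1.60, SE 0.27) and Lalba, which had 0 UMIs with T antigen against 83 without and so was at least 80.8-fold lower, taking 3 counts over both libraries as the limit. Of the 83 UMIs, 78 came from 4 cells of Tumor 2, and without that library Lalba was at least 6.40-fold lower on 5 UMIs. Without Tumor 2, Csn2 and Csn1s2a turned in sign (1.92 for each) and Csn1s1 was not called (log2 -1.17, adjusted p = 0.310). The call of Csn1s2a was lost under 6 of 10 alternatives, among them thinned cells (adjusted p = 0.353), at least 2 Epcam UMIs (0.0761) and leaving out DCIS 1 (0.0987) or DCIS 2 (0.104), and that of Lalba with thinned cells (0.0720) and without DCIS 2 (0.0537). The Csn1s2a difference was no smaller in those 4 fits, at -2.53, -1.71, -1.63 and -1.64. Csn2, Csn1s1 and Ltf were still called with thinned cells, and Wfdc18 was called there too (log2 -0.74, adjusted p = 0.0150). Without the library as a block none of the 5 was called. The immune gene Ptprc moved with this split in the tumours, at 14.6 and 13.0 CPM without T antigen (7.06% and 4.10% of cells) against 1.07 and 0.454 CPM with it. Pecam1 stood at 42.5 and 7.84 CPM without and 16.8 and 3.68 CPM with T antigen in Tumor 1 and 2, and the part of both in these values was not tested.

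The difference between the 2 states in this contrast was tested directly, and 2 of 10 members were among the 8 genes called (0.0576% of genes in either direction, 0.0144% lower). It was -4.62 for Csn2 (SE 0.30, edgeR adjusted p = 0.0204) and -2.21 for Ltf (SE 0.12, edgeR adjusted p = 0.00844). The unadjusted edgeR p was under 0.05 for 9 members and 1852 genes. Csn2 was lost without DCIS 1 (adjusted p = 0.0525), DCIS 2 (0.164) or Tumor 2, where the value turned to 0.48 (0.927). Ltf was lost without DCIS 2 (adjusted p = 0.164) and was called without DCIS 1, Tumor 1 or Tumor 2.

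**Figure D5:**
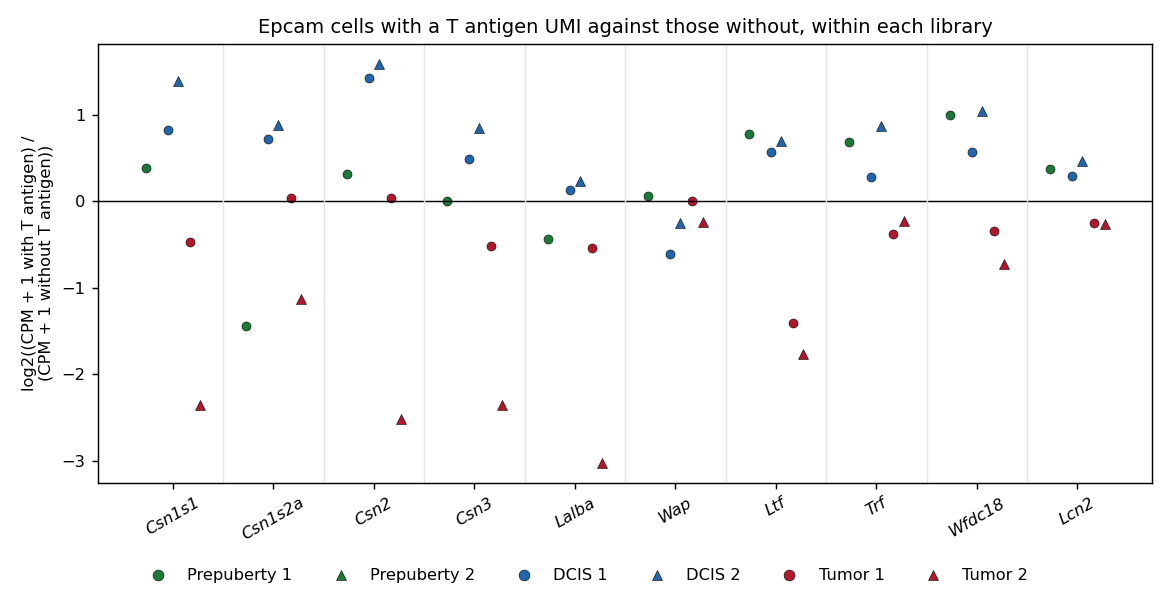
Difference of each gene between Epcam cells with and without a T antigen UMI, as the log2 ratio of CPM + 1, 1 point per library, with a line at 0. The Ltf points lie above 0 in Prepuberty 1, DCIS 1 and DCIS 2 and below 0 in Tumor 1 and Tumor 2, and Prepuberty 2 is not drawn.

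The genes most like each member were sought over 53 profiles (cell classes and sub-gates of the 6 libraries with at least 20 cells) by Pearson correlation of log2(CPM + 1). The profiles share libraries and overlap in cells, so the values are descriptions. Csn1s1 was closest to Csn2 (r = 0.94) and Csn1s2a (0.93), followed by C530043A13Rik (0.82), BC016579 (0.82) and Wap (0.81). Wap was closest to Csn2 (0.87), Csn1s2a (0.85) and Csn1s1 (0.81), followed by Dab1 (0.79) and C530043A13Rik (0.78). Ltf and Wfdc18 were close to each other (0.91), Ltf also to Fcgbp (0.90), Slc5a8 (0.90), Myo5c (0.89) and Muc15 (0.89), and Wfdc18 to Slc5a8 (0.92), Cldn4 (0.92), Crb3 (0.91) and Cldn3 (0.91).

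Csn3 was closest to Bglap3, Klk10, Wbscr25, Cldn3 and Ocln (0.84 to 0.85), the last of these a tight junction protein, and none of its 5 nearest genes was another casein. Among the genes closest to Lcn2 were Cblc, Wfdc3, Eps8l2 and Tnk1, and Trf was closest to Pkp3 (0.78), Slain1, Nup210, Cln6 and Rbm47. Lalba was closest to C130074G19Rik (0.77), Edn1 (0.76), which encodes the vasoconstrictor endothelin-1, Kit (0.73), Mcf2l (0.72) and Plscr2 (0.70).

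Other genes of the lactation programme were read from lists in the same fits of Epcam cells. Their calls are those of the main fit, and how stable they are under the alternatives was not assessed. Between DCIS and Prepuberty no gene of any list was called by edgeR. Of 13 regulators of alveolar cells, all tested, 2 were lower in Tumor than in DCIS (0.81% of all genes were), namely Tph1, which makes serotonin (log2 -7.79, SE 1.03, edgeR adjusted p = 0.0376), and Jak2 (log2 -2.26, SE 0.36, edgeR adjusted p = 0.0469). From Prepuberty to Tumor 4 of the 13 were lower (1.89% of all genes were), among them Jak2 (log2 -3.18, SE 0.37), Stat5a (-3.01, SE 0.43) and Stat5b (-2.28, SE 0.37). The median log2 difference of this list was -1.36 for Tumor over Prepuberty, beside 0.08 over all genes.

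Of 16 tested milk fat genes of 17, against the same shares of all genes, only Cd36, a fatty acid receptor, was lower in Tumor than in DCIS (log2 -4.99, SE 0.49, edgeR adjusted p = 0.0364), and Cd36 and the lipase Lpl (log2 -5.43, SE 0.72) were lower than in Prepuberty. Cd36 and Lpl are also made by endothelial cells and fat cells, and the endothelial gene Pecam1 stood at 5.06 to 22.1 CPM in the Epcam cells of the 6 libraries, a signal whose part in these values was not tested. The fibroblast gene Pdgfra was seen in 21.7% and 13.0% of the Epcam cells in Prepuberty and 7.50% and 6.43% in DCIS. In Tumor 1 the share was 5.33%, and 253 of the 1742 Epcam cells of Tumor 2 held it. The part of Pdgfra in these values was not tested either. Of 8 tested genes of transport and lactose synthesis of 9, only the water channel Aqp3 was called, higher in Tumor than in Prepuberty (log2 4.68, SE 0.74), as were 173 of all 14206 genes. Of 7 tested other secretory genes of 8, Lyz2 (log2 4.46, SE 0.56) and Spp1 (5.53, SE 0.78) were higher and Slpi (-5.27, SE 0.96) was lower in Tumor than in Prepuberty. Lyz2 is a lysozyme of macrophages and Spp1 is made by them too, and the immune gene Ptprc was seen in 3.26% and 2.18% of the Epcam cells of Tumor 1 and 2 against 0.480% to 1.53% in the gland libraries, a difference whose part in these values was not tested.

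Of 10 tested innate defence genes of 12, 4 were lower in Tumor than in DCIS and 4 lower than in Prepuberty, beside the same 0.81% and 1.89% of all genes. Among them were the neutrophil attractant Cxcl5 (log2 -2.48, SE 0.36, from DCIS and -4.22, SE 0.38, from Prepuberty) and acute-phase serum amyloid A genes. Saa1 had log2 differences of -11.63 from DCIS (SE 0.97) and -10.28 from Prepuberty (SE 0.94), on 5 Tumor UMIs, and Saa3 had -9.87 from Prepuberty (SE 1.15). Saa2 had 2896 UMIs in DCIS and 0 in Tumor, and so was at least 2092-fold higher in DCIS, taking 3 counts over both Tumor libraries as the limit. The part of the Pdgfra signal given above in the values of these genes was not tested. Lcn2, which is often induced with these genes, was lower in both tumour libraries than in the others but not called, as given above.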

How the data were processed

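Single-cell RNA-seq was analysed in 6 libraries, 2 per state. The authors counted UMIs per gene and cell with Cell Ranger and deposited 1 matrix of raw counts per library, with the T antigen among the features. Per the submitters' processing notes, which cover the whole series, Cell Ranger, STAR, SAMtools, Picard, Salmon and the build mm10 were used, and the build of the single-cell reference is not given in the sources used here. Cells with at least 200 genes and under 10% mitochondrial UMIs were kept, and the highest doublet scores were removed per library (0.8% per 1000 cells, scored on cells under 20% mitochondrial UMIs). Raw UMIs were summed per library and class (at least 10 cells) and tested with edgeR 4.0.16 (TMM, filterByExpr, glmQLFit and glmQLFTest, two-sided) in R 4.3.3. States were fitted over all 6 libraries, and classes of the same libraries with the library as a block. DESeq2 1.42.0 was an alternative. Log2 values carry a prior count of 0.125. Thinned cells were drawn to 2000 UMIs, leaving out shallower ones, and binomial intervals are exact (95%). Libraries held 30041293 to 61479653 deposited UMIs, and errors of fitted values measure the spread between libraries. The fitting scripts were tested on simulated data.

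The 10 members were given by name, and the members, gene lists and tests were chosen with earlier results of these data known. From each other list, genes past the threshold were named, at most the 3 with the smallest adjusted p per state comparison, and for each member the 5 genes with the largest correlation (at least 10 CPM in 1 profile), of which 1 is not reported here. Alternatives were other scaling, no filter, DESeq2, other cell limits, thinning, blocks and leaving out each library, and 3 sets of fits, and counting ratios leaving out each library, were added after seeing the data (the fits of the progenitor sub-gate, and the endothelial and immune gates between states and against the fibroblast gate). Promoter windows and gene models came from RefSeq (GRCm38.p6) and GENCODE vM21 (GRCm38), and Python 3.11.15 was used. Bulk libraries of the study were not analysed here.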

Additional observations from a re-analysis of the deposited data

Results flagged for a closer look

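The contrast between Epcam cells with and without a T antigen UMI differed between Tumor and DCIS for Csn2 and Ltf, in a test of the difference itself. On the log2 scale the Tumor contrast minus the DCIS contrast was -4.62 for Csn2 (SE 0.30, edgeR adjusted p = 0.0204) and -2.21 for Ltf (SE 0.12, edgeR adjusted p = 0.00844). For Ltf all 4 libraries showed the direction of their state. For Csn2 the Tumor side rested on Tumor 2, since Tumor 1 held 1 UMI in all, and without Tumor 2 the difference was 0.48 (adjusted p = 0.927). Its call was also lost without DCIS 1 (-4.65, adjusted p = 0.0525) or DCIS 2 (-4.57, adjusted p = 0.164), and that of Ltf without DCIS 2 (-2.16, adjusted p = 0.164). Cells with T antigen were deeper in each of these libraries (median UMIs 14283 to 22850 against 7484 to 11197), and after thinning all cells to 2000 UMIs both differences were still called, as were those of Csn1s1 (-3.70) and Wfdc18. The Ltf contrast within DCIS was not called after thinning (log2 0.31, adjusted p = 0.302). Cells were split before thinning, so thinning cannot show whether depth set which cells held a T antigen UMI.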

How the results depend on the processing

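For 122 log2 differences of members, 1529 values were recomputed under alternatives, of which 1300 kept their direction and their side of the threshold, 99 lost a call with the same sign, 107 gained one and 23 changed sign, 4 of which lost a call too. The counts of members called between Tumor and DCIS were 8 without the filter on low counts, 7 with DESeq2, 2 with mitochondrial UMIs under 5%, 5 with library sums thinned to 1 depth, 2 with cells thinned, 4 in the progenitor sub-gate, 0 in a fit of the 4 libraries compared only, and 0 to 7 leaving out 1 library. Between Tumor and Prepuberty they were 8 without the filter, 4 with DESeq2, 2 with thinned sums, 0 with thinned cells, 3 in the progenitor sub-gate, 0 with only 4 libraries and 0 to 5 leaving out 1 library. Between DCIS and Prepuberty 4 were called without the filter. Counts in this and the next paragraph are of members only. The number or share of all genes called is given above only for DESeq2 between states and for the progenitor sub-gate. The other counts therefore cannot be read against all genes. Where a library was left out of a state, the lone one was assumed to vary like the other states.

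With the replicate number as a block, 0 members were called between Tumor and DCIS, 0 between DCIS and Prepuberty and 1 between Tumor and Prepuberty. Deviations from the state means over 14167 genes correlated at 0.26 (Prepuberty and DCIS), -0.02 (Prepuberty and Tumor) and 0.02 (DCIS and Tumor). The labels give no shared origin and 2 of the 3 values are near 0, so equal numbers were not taken as pairs. Without the library as a block fewer members passed the filter, and 5 of 6 tested were called against the immune gate, 0 of 8 in the hormone-sensing comparison, 5 of 6 in the basal one (Lcn2 was lost) and 0 of 10 for the difference of T antigen contrasts. Leaving out 1 library gave 0 to 10 for the hormone-sensing comparison, 0 to 1 for the T antigen contrast over all states, 0 to 7 for its difference between Tumor and DCIS, and 1 to 2 for endothelial against fibroblast cells. That difference had 6 calls without the filter, 8 with DESeq2, 4 with at least 2 Epcam UMIs and 4 with thinned cells.

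Log2 values that changed sign when 1 library was left out ran, for DCIS against Prepuberty, from -0.21 to 0.14 (Ltf) and from -0.37 to 0.026 (Lcn2). For Tumor against DCIS they ran from -3.84 to 0.081 (Csn3) and from -1.25 to 0.39 (Trf). For Tumor against Prepuberty they ran from -8.92 to 0.90 (Csn2), from -3.34 to 0.58 (Csn3) and from -6.81 to 2.47 (Wap). Lalba in Epcam against endothelial cells ran from -0.74 to 0.23. The difference of T antigen contrasts ran from -2.38 to 1.19 (Csn1s2a), from -4.68 to 0.48 (Csn2) and from -3.32 to 0.57 (Wap), and the contrast in Tumor from -1.66 to 1.92 (Csn1s2a) and from -3.25 to 1.92 (Csn2). With thinned cells the sign changed for Trf between Tumor and DCIS (0.33), Csn3 between Tumor and Prepuberty (0.19), Wap in the difference of T antigen contrasts (1.80) and Lalba in the DCIS contrast (-0.17), and with DESeq2 for Wap against the immune gate (-0.71). The cause was not tested for these values.

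With 2 libraries per state, and with milk genes carried by few cells, single libraries set many values. Tumor 1 and Prepuberty 2 held few UMIs of several caseins, so the levels of these genes there rested on few counts. Intervals cover counting error only.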

Other observations

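Lcn2 was also read in the few cells that held at least 3 of 5 neutrophil markers. The 2 such cells of DCIS 1 held 23 Lcn2 UMIs (8960 CPM), the 15 of Tumor 1 held 6 (501 CPM), the 38 of Tumor 2 held 35 (648 CPM) and the only one of Prepuberty 2 held 0. Ltf, another granule protein of neutrophils, had 0 UMIs in all of them.

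Cells with T antigen but no Epcam UMI numbered 58 and 207 in the Tumor libraries and 1 to 7 in the gland libraries. In Tumor 2, where their median depth was 17518 UMIs, they held Csn1s1 at 2.80 CPM (11 UMIs), Wfdc18 at 14.8 CPM and Lcn2 at 90.1 CPM, against 14.9, 1229 and 277 CPM in the Epcam cells of that library.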
